A study of Mus musculus with 36 samples.

Results

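The step from 60 to 120 min of lipopolysaccharide (LPS) was followed in macrophages that carry the D310N form of Tnip2. Its members were the 3 D310N libraries taken at 60 min and the 3 taken at 120 min, 6 of the 36 libraries in all. A gene was tested when its deposited value, taken back to the linear scale, reached 10 in at least 3 of the 36 libraries, and 11659 of 16416 genes did. The macrophages were grown from mouse bone marrow on non-adherent plates, over 7 days in RPMI supplied with L929 supernatant and 10% fetal calf serum, and then received LPS at 100 ng/ml. The genotypes were wild type (WT) and Tnip2[D310N], each taken at 0, 30, 60, 120, 240 and 360 min with 3 libraries per group, and the labels give the same culture protocol for every group. The labels give neither the age nor the sex of the mice, and do not say whether the 3 libraries of a group came from separate mice or cultures. The p-values therefore measure the spread between these libraries, which may be technical.

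LPS is sensed by TLR4, which signals through MyD88 and through TRIF. Within minutes the pathway activates MAP kinases and NF-kB, and these switch on immediate early genes without new protein synthesis; many of those genes encode transcription factors and inhibitors that are short-lived. The TRIF branch drives interferon-beta, and secreted interferon then acts through its receptor on a later set of interferon-stimulated genes. Tnip2 encodes ABIN-2, a ubiquitin-binding protein that stabilises the kinase Tpl2, the product of Map3k8 and the activator of the ERK MAP kinases in LPS-treated macrophages.

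The libraries carried high levels of macrophage genes. Over the 6 libraries, median log2 levels were 17.0 for the lysozyme gene Lyz2, 14.9 for Adgre1 (F4/80) and 14.5 for Csf1r, the M-CSF receptor. The 9 macrophage markers summed, on the linear scale, to 242050 to 260402 at 60 min and 246825 to 262385 at 120 min. Markers of other cells were low: the summed neutrophil level was 33.9 to 38.1 and then 31.9 to 41.3, with Ly6g, Mpo and Elane below 0 on the log2 scale, and that of 7 lymphocyte markers was 5.73 to 6.68 and then 5.62 to 6.82. The dendritic cell list (4 of 7 markers past the filter) summed to 58.6 to 68.0 at 60 min and 122 to 137 at 120 min, and the stromal list (2 of 7) to 45.3 to 53.5 and 105 to 112; their part in the results was not tested. Flt3, Siglech and Cd209a of the dendritic list had medians of 0.40, -0.22 and -1.80. Of its 4 tested markers, Zbtb46 (1.41), Ccr7 (1.19) and Xcr1 (0.87) rose, and the other was not called (-0.26). The stromal sum rose with Pdgfrb (2.02), while the other tested stromal marker was not called (-0.37). D310N 60 min replicate 1 had a higher level of the ribosomal RNA precursor Rn45s, at 15.97, than the other 5 libraries of the step, whose highest value was 14.94. Fewer cells of a type and less RNA per cell cannot be told apart in such bulk samples.

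Between 60 and 120 min, macrophages of the D310N genotype gained interferon-stimulated genes, chemokines and Nos2. They lost transcription factors of the immediate early class and feedback genes of MAP kinase signalling. Of the 11659 genes, 6388 were called at an adjusted p under 0.05 (54.8%). Of these, 3241 rose (27.8% of all tested genes) and 3147 fell (27% of all tested genes). A difference of 1 on the log2 scale is a doubling, and 425 genes rose (3.65%) and 284 fell (2.44%) by more than that. The 3 libraries at 120 min did not overlap the 3 at 60 min for 6768 genes (58% of all tested genes). Of these, 5943 were also called (51% of all tested genes). The median difference over all tested genes was -0.00133. Counts called in the gene lists below stand beside these shares of 27.8% higher and 27% lower. Differences below are log2 differences, 120 min minus 60 min, ± standard error (SE) from limma, and p-values are adjusted by the Benjamini-Hochberg method over all tested genes.

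In the 425 genes that rose by more than 1, the median D310N level was 6.62 at 0 min, 6.60 at 30 min, 7.00 at 60 min, 8.73 at 120 min and 9.43 at 240 min. The 284 that fell by more than 1 had median levels of 7.64, 7.86, 7.68, 6.40 and 6.02 at the same times. The values at 60 and 120 min chose these genes, so they are a description of the step.

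The largest rise belonged to Mx2 (chromosome 16, 97535308 to 97560900 on GRCm38, as are all positions here), an interferon-induced dynamin-like GTPase that restricts viruses. Its log2 levels at 60 min were 8.13, 8.31 and 8.23, and at 120 min 11.65, 11.60 and 11.65. Every library at 120 min lay more than 3 above every library at 60 min, and the difference was 3.41 ± 0.05 (limma, adjusted p = 9.68e-31). Mx1 (chromosome 16, 97447035 to 97462907), its neighbour and paralog, was at 10.30, 10.37 and 10.37 and then at 13.31, 13.26 and 13.32, without overlap (2.95 ± 0.06). The means of Mx2 before the step were 7.90 at 0 min and 7.85 at 30 min, and it was at 12.41 at 240 min, so most of its rise fell within this hour.

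Ifit1 (chromosome 19, 34640871 to 34650009), which encodes a protein that binds viral RNA ends, was at 11.27, 11.40 and 11.36 and rose to 14.59, 14.53 and 14.57 (3.22 ± 0.08). Rsad2 (chromosome 12, 26442746 to 26456452), encoding viperin, an enzyme that makes a chain-terminating nucleotide, was at 12.83, 12.95 and 12.94 and then 16.08, 16.03 and 16.16 (3.18 ± 0.07). In both genes the libraries of the 2 times stood well apart. Cmpk2 (3.21 ± 0.09), which lies beside Rsad2 on chromosome 12 and encodes a mitochondrial nucleotide kinase, and Ifit2 (3.19 ± 0.07), another member of the Ifit cluster, rose by similar amounts. Ifit1 has close relatives in that cluster, and reads shared among them, as between Tgtp1 and Tgtp2, make the split between family members uncertain.

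Of 53 tested genes on a list of type I interferon-stimulated genes, 52 rose and 0 fell, against 27.8% and 27% of all genes, with a median of 1.54. The member not called was Sp100, at 11.11, 11.36 and 11.25 and then 11.36, 11.44 and 11.36 (0.15 ± 0.06, adjusted p = 0.053). The size of the rise differed widely among members. The guanylate-binding proteins and immunity-related GTPases on this list, which attack vacuoles that hold microbes, rose by 2.04 (Gbp2, Gbp3 and Irgm1) to 2.90 (Gbp5), and the ubiquitin-like modifier Isg15 by 1.67. Among signalling genes of the pathway, Irf7 rose by 0.79 and Irf9 by 0.57, while Stat2, at 10.28, 10.37 and 10.33 and then 11.96, 11.94 and 12.01, rose by 1.64. The oligoadenylate synthetases Oas3 (0.35), Oas1a (0.50) and Oas2 (0.68), which activate an RNA-degrading enzyme, were near the bottom of the list. Irf7 reached 14.6 at 360 min, so most of its rise came after 120 min.

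**Figure D1:**
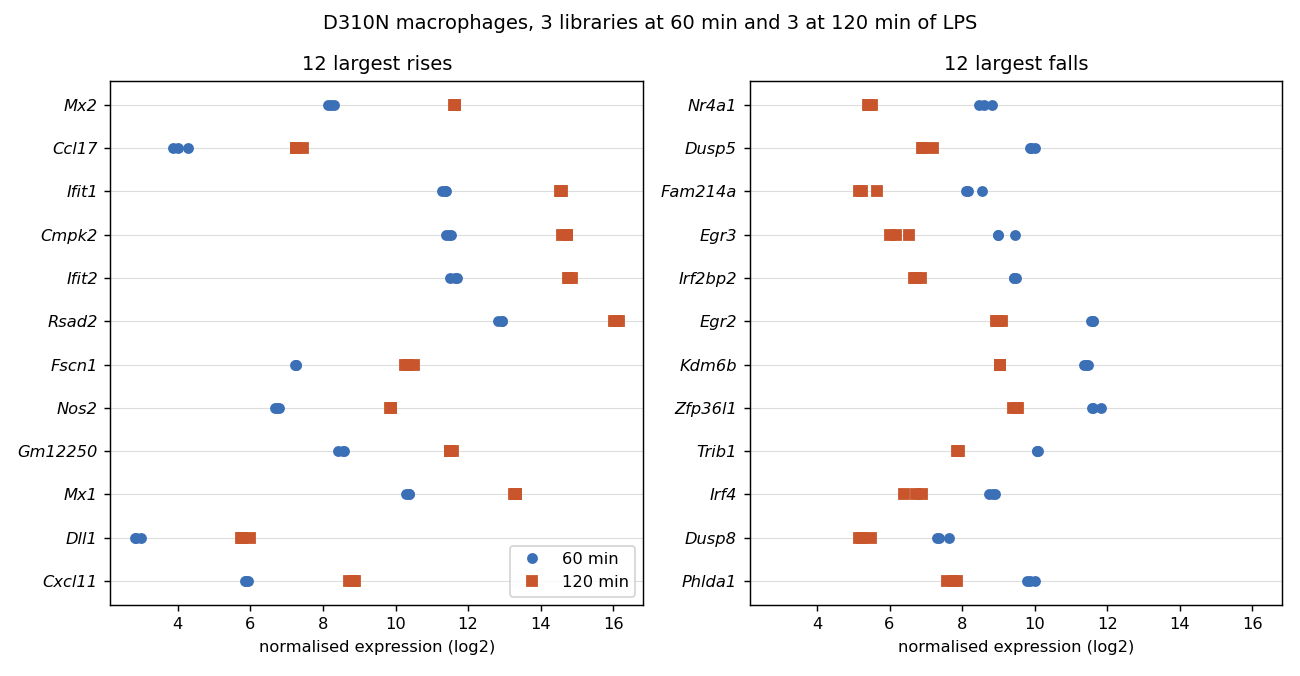
Log2 normalised expression of the 12 largest rises (left) and the 12 largest falls (right) in each D310N library, with circles for the 3 libraries at 60 min and squares for the 3 at 120 min. The 2 times do not overlap for any gene shown; the gap is widest for Mx2 (3.41) and Nr4a1 (-3.17).

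The promoters of 4 risers are shown because a sequence that interferon-activated factors bind recurs in them. The windows run from 250 bases before to 50 after a gene's start, from RefSeq on GRCm38.p6, 5' to 3' on the gene's strand. Capitals mark matches on either strand to the core of the interferon-stimulated response element, which is GAAA, any 2 bases and GAAA again, and to the kappaB consensus, which NF-kB binds. Ifit1 (chr19:34640639-34640938, plus strand) holds 2 response elements, Rsad2 (chr12:26456403-26456702, minus strand) holds 1, Gbp5 (chr3:142496684-142496983, plus strand) has 1 of each motif, and Cxcl10 (chr5:92348840-92349139, minus strand) has 1 response element and 2 kappaB matches.
Ifit1: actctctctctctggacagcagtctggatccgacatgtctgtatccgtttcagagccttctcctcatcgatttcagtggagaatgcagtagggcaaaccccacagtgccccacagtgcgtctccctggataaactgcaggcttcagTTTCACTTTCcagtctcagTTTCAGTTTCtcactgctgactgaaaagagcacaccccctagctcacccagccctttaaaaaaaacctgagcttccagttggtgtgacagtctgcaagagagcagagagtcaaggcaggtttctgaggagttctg
Rsad2: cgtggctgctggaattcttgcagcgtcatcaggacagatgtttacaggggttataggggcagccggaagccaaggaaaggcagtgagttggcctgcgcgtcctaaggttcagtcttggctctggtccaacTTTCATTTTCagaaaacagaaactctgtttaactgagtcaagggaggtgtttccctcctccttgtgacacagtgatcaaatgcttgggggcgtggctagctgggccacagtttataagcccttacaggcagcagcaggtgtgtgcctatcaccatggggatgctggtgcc
Gbp5: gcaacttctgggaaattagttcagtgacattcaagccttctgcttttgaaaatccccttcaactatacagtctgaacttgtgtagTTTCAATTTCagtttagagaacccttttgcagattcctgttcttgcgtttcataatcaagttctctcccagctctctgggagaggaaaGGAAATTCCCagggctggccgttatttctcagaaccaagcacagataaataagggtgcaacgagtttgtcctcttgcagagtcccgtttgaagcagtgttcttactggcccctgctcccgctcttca
Cxcl10: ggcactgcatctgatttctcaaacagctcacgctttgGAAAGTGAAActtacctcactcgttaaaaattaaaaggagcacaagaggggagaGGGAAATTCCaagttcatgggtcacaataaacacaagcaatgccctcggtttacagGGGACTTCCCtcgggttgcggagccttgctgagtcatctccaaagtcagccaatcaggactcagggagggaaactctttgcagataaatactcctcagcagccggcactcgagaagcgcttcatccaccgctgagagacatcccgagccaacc

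A window was found for 9386 of the tested genes (80.5%). The response element core was present in 3.39% of these, in 3.49% of all 27025 promoters of the table, in 12.8% of the genes that rose by more than 1 (43 of 335) and in 1.93% of those that fell by more than 1 (4 of 207). Within the interferon list it was found in 25 of 41 windows (61%). The kappaB consensus was in 5.07% of tested genes, 4.35% of all promoters, 10.1% of the risers (34) and 4.83% of the fallers (10). The TATA box, TATAAA, was in 6.89% of tested genes, 14.2% of all promoters, 12.8% of the risers and 10.1% of the fallers. No motif was tested for enrichment; a match describes letters in a window and not a bound site.

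Chemokines, which recruit other leukocytes, rose in 15 of 18 tested genes, with 1 lower and a median of 1.08. Ccl17, a ligand of CCR4 made by dendritic cells and activated macrophages, was at 4.01, 3.87 and 4.29 and then 7.26, 7.45 and 7.27 (3.27 ± 0.13). The 3 CXCR3 ligands, which attract activated T cells, rose together: Cxcl11 by 2.91, Cxcl9 by 2.72 and Cxcl10 by 2.44. Cxcl10 was the most abundant of them, at 12.83 in each library at 60 min and at 15.35, 15.25 and 15.22 at 120 min. Ccl5 (2.39), Cx3cl1 (2.31) and Ccl22 (2.09) also rose. The inflammatory chemokines Ccl3 and Ccl4, already strongly expressed, rose less, by 1.02 and 1.13. The summed level of the dendritic cell markers rose over the same hour (122 to 137 at 120 min), with 3 of 4 tested members called higher. Fscn1, which encodes an actin-bundling protein of mature dendritic cells, was among the largest rises (3.13 ± 0.08). The part of these genes in the chemokine values was not tested.

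Neutrophil-attracting chemokines did not move as 1 group. Cxcl2 was the list's fall, from 14.38, 14.02 and 14.45 to 13.60, 13.06 and 13.71 (-0.83 ± 0.19, adjusted p = 0.00037). Cxcl1 was at 13.24, 12.45 and 13.14 and then 12.77, 11.92 and 12.54, so its libraries overlapped (-0.54 ± 0.24, adjusted p = 0.061). Even so, each Cxcl1 library at the later time lay below the earlier library of the same replicate number. The labels do not say that these numbers pair libraries, and the model did not pair them. Cxcl3, on the same stretch of chromosome 5, went the other way, from 9.01, 8.66 and 9.04 to 10.99, 10.64 and 10.90 (1.94 ± 0.20).

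Cytokines split in a similar way, with 15 of 28 tested genes higher, 8 lower and a median of 0.46. The share lower was near the 27% over all genes. Il27, a subunit of an interleukin-12 family cytokine, was at 8.39, 8.19 and 8.27 and then 11.36, 11.05 and 11.05 (2.87 ± 0.17), and its partner subunit Ebi3 rose by 1.04. Il6, the acute-phase cytokine, was at 7.60, 7.66 and 7.66 and then 9.89, 9.55 and 9.89 (2.14 ± 0.14). Il12a (1.82) and Il12b (1.79), which encode the subunits of interleukin-12, rose nearly equally. Ifnb1 itself, a single-exon gene on chromosome 4, was at 8.0, 8.18 and 8.10 and then at 9.36, 9.29 and 9.13 (1.16 ± 0.22). Its group mean was 4.54 at 0 min and had fallen back to 7.98 by 240 min, so 120 min held its highest mean among the 6 times.

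The cytokines that fell included growth factors of the early response: Areg, an EGF receptor ligand, by 2.08, Vegfa by 1.79, and Hbegf, a further EGF receptor ligand, by 1.57. Csf2, which encodes GM-CSF, went from 8.20, 8.17 and 8.19 to 7.01, 6.52 and 6.82, without overlap (-1.40 ± 0.15). Tnf, the cytokine at the centre of the early response, stayed near its plateau at 15.63, 15.49 and 15.54 and then 15.44, 15.23 and 15.41, and was not called (-0.19 ± 0.12, adjusted p = 0.19). Il1a (-0.04) and Il10 (-0.18) were not called either.

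Enzymes that make small mediators rose in 10 of 19 tested genes, with 3 lower and a median of 0.44. Nos2 (chromosome 11, 78920787 to 78960254), the inducible nitric oxide synthase, was at 6.80, 6.69 and 6.73 and then at 9.88, 9.88 and 9.84 (3.13 ± 0.07). The arginine transporter gene Slc7a2 (2.52 ± 0.10), whose product brings in the substrate of that enzyme, and Hdc (2.64 ± 0.08), which encodes the histamine-forming enzyme, also rose. Irg1, which encodes the itaconate-forming enzyme, went from 13.15, 13.24 and 13.22 to 14.59, 14.59 and 14.60 (1.39 ± 0.04). Ptgs2, the inducible cyclooxygenase, rose by only 0.49 in this hour and had its larger change afterwards, from a mean of 13.2 at 120 min to 15.1 at 240 min.

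**Figure D2:**
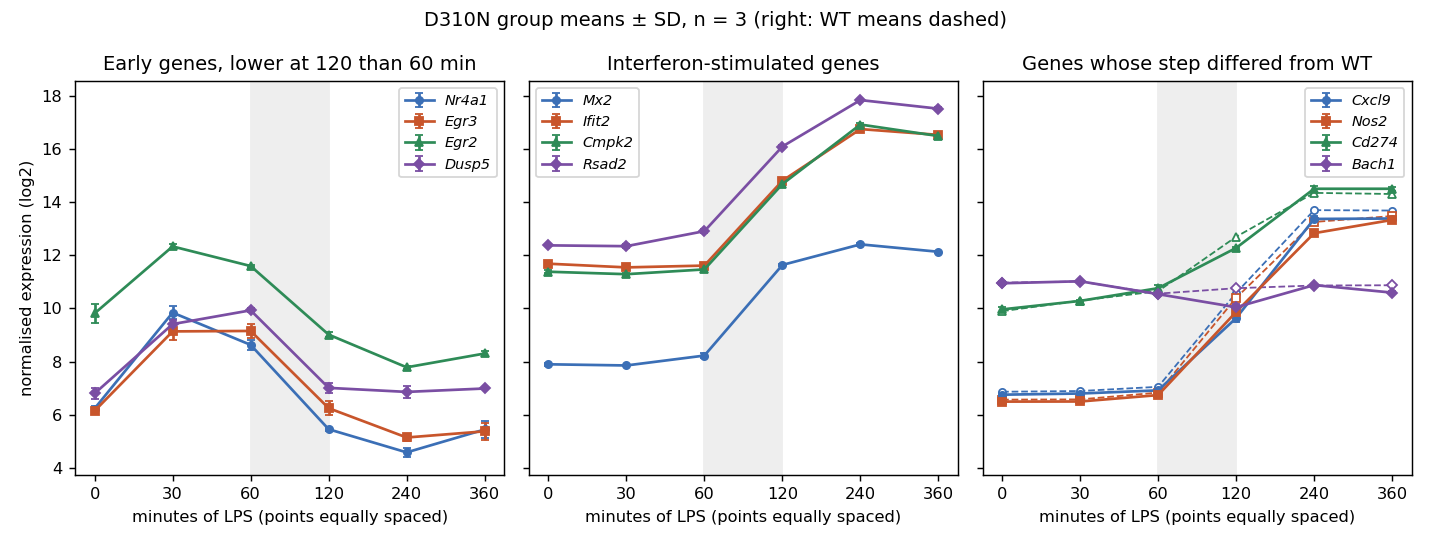
Log2 normalised expression by minutes of LPS, as D310N group means ± SD of 3 libraries, for 4 early genes (left), 4 interferon-stimulated genes (middle) and 4 genes whose step differed from WT (right, WT means dashed with open symbols); times are equally spaced on the axis and the step from 60 to 120 min is shaded. The early genes fall and the interferon-stimulated genes climb within the shaded hour, and the dashed WT lines for Cxcl9, Nos2 and Cd274 lie above the D310N lines at 120 min.

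The immediate early transcription factors went down as a group. Of 33 tested members 25 fell and 4 rose, with a median of -1.03. Nr4a1 (chromosome 15, 101254269 to 101274795), an orphan nuclear receptor, showed the largest fall of any named gene, from 8.47, 8.82 and 8.59 to 5.41, 5.44 and 5.51 (-3.17 ± 0.17, adjusted p = 2.72e-16). At 120 min it lay below its mean at 0 min of 6.23. Egr3, a zinc-finger factor, went from 9.0, 9.47 and 8.99 to 6.02, 6.54 and 6.18 (-2.91 ± 0.14), and Egr2 from 11.61, 11.55 and 11.62 to 8.94, 9.10 and 8.99 (-2.58 ± 0.10). No library at 120 min reached the lowest library at 60 min in these 3 genes. Myc fell by 2.10, Fosl1 by 1.96 and Jun by 1.46. Fos itself fell from 10.43, 10.57 and 10.48 to 9.17, 9.08 and 9.16 (-1.36 ± 0.07).

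Of that list, 4 members rose. Nr4a3, of the same receptor family as Nr4a1, went from 6.82, 6.87 and 6.84 to 8.66, 8.74 and 8.79 (1.89 ± 0.17), so the 2 receptors crossed in level order between the times. Mafk, a small Maf factor, rose by 0.95, Cebpd by 0.42 and Jund by 0.30. Atf3, which encodes a repressor of inflammatory genes, was at 13.30, 13.50 and 13.30 and then 13.46, 13.43 and 13.33, so its libraries overlapped (0.04 ± 0.04, adjusted p = 0.45). Kdm6b (-2.38 ± 0.13), a histone demethylase, and Irf4 (-2.16 ± 0.12), an interferon regulatory factor, were also among the largest falls.

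Genes of the MAP kinase feedback list fell alongside: of 21 tested members 15 fell and 3 rose, and the median was -1.07. The list holds inhibitors of MAP kinase signalling but is not limited to them, since the Gadd45 genes are on it as well. Dusp5 (chromosome 19, 53529109 to 53542431), the nuclear ERK phosphatase, went from 9.87, 10.01 and 9.91 to 6.93, 7.21 and 6.89, without overlap (-2.92 ± 0.10, adjusted p = 1.76e-21). Dusp8 (-2.16 ± 0.14), a phosphatase of JNK and p38, Dusp4 (-1.92 ± 0.08), a further nuclear phosphatase, and Dusp1 (-1.30 ± 0.19), which acts mainly on p38 and JNK, also fell. So did Spry1 (-1.85) and Spry2 (-1.59), which act upstream of ERK, and Errfi1 (-2.07 ± 0.06), an inhibitor of EGF receptors. Dusp2, a phosphatase of immune cells, rose from 11.28, 11.17 and 11.18 to 11.59, 11.62 and 11.36 (0.31 ± 0.09), and Rasa2, which encodes a Ras GTPase-activating protein, rose by 1.09.

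The promoters of 2 phosphatase genes that fell are shown for the elements they carry. Capitals mark, in Dusp5 (chr19:53528895-53529194, plus strand), a pair of neighbouring CArG boxes, the sequence that serum response factor binds, and in Dusp8 (chr7:142095235-142095534, minus strand), a pair of cAMP response elements, TGACGTCA. The windows are again from RefSeq on GRCm38.p6, 250 bases before to 50 after the start.
Dusp5: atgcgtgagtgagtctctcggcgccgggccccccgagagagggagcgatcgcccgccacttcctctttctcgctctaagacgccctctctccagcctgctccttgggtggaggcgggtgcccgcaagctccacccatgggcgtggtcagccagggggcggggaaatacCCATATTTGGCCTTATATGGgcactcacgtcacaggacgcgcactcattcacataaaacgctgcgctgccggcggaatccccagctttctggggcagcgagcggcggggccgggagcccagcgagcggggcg
Dusp8: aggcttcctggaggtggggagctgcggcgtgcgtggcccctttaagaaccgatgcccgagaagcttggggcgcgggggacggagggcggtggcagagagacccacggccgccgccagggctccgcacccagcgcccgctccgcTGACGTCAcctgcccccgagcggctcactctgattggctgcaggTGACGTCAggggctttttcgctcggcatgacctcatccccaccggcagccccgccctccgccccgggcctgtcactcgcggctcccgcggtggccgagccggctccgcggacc

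The cAMP response element was in 4.83% of the genes that fell by more than 1 (10 of 207), 1.79% of those that rose by more than 1, 3.39% of tested genes and 1.88% of all promoters, on either strand. The CArG box was in 0.966% of the fallers (2), 1.25% of tested genes and 1.57% of all promoters. AP-1 sites, TGANTCA, were in 5.31% of the fallers, 8.96% of the risers, 5.01% of tested genes and 7.93% of all promoters.

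Genes of NF-kB and its control moved in both directions, 13 of 22 up and 4 down, with a median of 0.35. Nfkb1 (chromosome 3, 135584655 to 135691547), which encodes p105 and so both the p50 subunit and a partner that holds Tpl2, was at 12.16, 12.19 and 12.15 and then 13.14, 13.20 and 13.16 (1.00 ± 0.04). The atypical IkB genes parted: Bcl3 rose by 1.17, while Nfkbid fell from 11.08, 10.79 and 10.97 to 9.47, 9.31 and 9.32 (-1.58 ± 0.09) and Nfkbiz fell by 0.72. Nfkbia, the classical inhibitor, was at 14.47, 14.33 and 14.39 and then 14.36, 14.33 and 14.24, and was not called (-0.09 ± 0.05, adjusted p = 0.13).

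Tnip2 (chromosome 5, 34496087 to 34513991), the mutated gene, was at 9.16, 9.20 and 9.15 and then at 9.11, 9.14 and 9.03, and was not called (-0.07 ± 0.06, adjusted p = 0.334). A point mutation need not alter the RNA level, so these values do not check the genotype labels. Tnip1, its paralog ABIN-1, rose by 0.61 ± 0.06. Tnip3 had a difference of -0.19 ± 0.09 (adjusted p = 0.0761), and its call depended on the model settings. Tnfaip3, the deubiquitinase A20, went from 14.87, 14.98 and 14.90 to 14.68, 14.75 and 14.72, a fall of small size without overlap (-0.20 ± 0.06). Map3k8, the gene of Tpl2, rose from 8.98, 9.0 and 9.15 to 10.46, 10.46 and 10.53 (1.44 ± 0.05). The difference of the step from WT was not called for any of these 6 genes, Nfkb1 included. Map3k8 had a difference of -0.23 (adjusted p = 0.295), which passed under 1 of the 23 alternative settings, with library weights (-0.27, limma, adjusted p = 0.038).

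Regulators of messenger RNA decay were lower in 7 of 16 genes and higher in 5, with a median of -0.08. Over all genes 27% were lower and 27.8% higher, and the share of this list that was higher was near the latter. Zfp36l1 (-2.20 ± 0.08) and Zfp36 (-0.80 ± 0.11), which encode proteins that bind AU-rich elements and shorten the life of cytokine transcripts, both fell; Zfp36 went from 13.13, 13.21 and 13.06 to 12.39, 12.33 and 12.28. Arid5a, whose product protects Il6 transcripts, rose by 0.54. Genes of interferon induction and interferon regulatory factors were higher in 13 of 24 and lower in 5. The cytokine-signalling inhibitors Socs1 (2.71 ± 0.14) and Cish (2.09 ± 0.17) rose, whereas Socs3 was at 13.49, 13.50 and 13.41 and then 13.46, 13.46 and 13.31 and was not called (-0.05 ± 0.07, adjusted p = 0.52). Tlr4, the LPS receptor, fell from 10.62, 10.85 and 10.71 to 10.10, 10.23 and 10.17 (-0.56 ± 0.06), and Tlr2 rose by 0.86, within a receptor and adaptor list of 13 higher and 4 lower of 22.

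Antigen presentation and costimulation genes rose in 22 of 25, with 1 lower and a median of 0.53. Cd69, an early activation marker, went from 10.18, 10.32 and 10.27 to 12.18, 12.18 and 12.16 (1.92 ± 0.10), and Cd274, which encodes PD-L1, rose by 1.51 ± 0.06. The class I peptide transporter Tap1 (1.09) moved more than the class I heavy chain H2-K1 (0.23) or B2m (0.19). The summed level of the dendritic cell markers rose in the same hour, from 58.6 to 68.0 up to 122 to 137. Their part in these values was not tested.

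In 4 further lists more members fell than rose, though 13 of the 29 genes on the resident macrophage list were not called. Cell cycle and replication genes fell in 21 of 31, with a median of -0.36: the replication licensing gene Cdc6 fell by 1.39 and E2f2 by 1.69, and the lone rise was E2f8 (0.66 ± 0.08), a repressor of the same programme. Of 29 genes of resident macrophage identity and chemoattractant receptors, 12 fell and 4 rose; Cnr2, a cannabinoid receptor (-2.02 ± 0.13), and Cxcr4 (-2.00 ± 0.15) fell most, and the formyl peptide receptor Fpr1 rose by 1.45. Clock genes fell in 9 of 15 and rose in 3 (median -0.47), with Nr1d1 at -1.70 and Per1 at -1.54. Of 21 alpha-arrestin and FoxO-type genes 13 fell, among them Irs2 (-1.75) and Sesn1 (-1.66), and 5 rose, among them Txnip (1.07). Txnip, whose product restrains glucose uptake, had dropped from a mean of 12.9 at 0 min to 10.9 at 60 min before its rise to 11.97.

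Survival genes were mixed, 13 of 23 up and 7 down, with a median of 0.19. Their share lower was near the 27% over all genes. Mcl1, an antiapoptotic gene with short-lived products, fell from 14.05, 14.13 and 14.15 to 13.32, 13.38 and 13.32 (-0.77 ± 0.06), and the death receptor gene Fas rose by 1.06 ± 0.06. The 3 Bcl2a1 copies rose by 0.57 to 0.86 but share much sequence, so their split is uncertain. ATF4 and stress genes were higher in 5 of 18 and lower in 6, and cholesterol genes in 4 and 6 of 24. Over all genes 27.8% were higher and 27% lower, and the shares in both lists were near or below these. Glycolysis genes were higher in 4 and lower in 2 of 19 (median 0.01). Ribosomal protein genes shifted by little, 16 of 28 higher and 0 lower with a median of 0.12, and this direction flipped with quantile normalisation (0 higher, 3 lower, median -0.03). Oxidative phosphorylation genes (10 of 24 higher, 0 lower) became 3 higher and 2 lower with quantile normalisation, and the count of lower glycolysis genes became 11, with a median of -0.15.

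**Figure D3:**
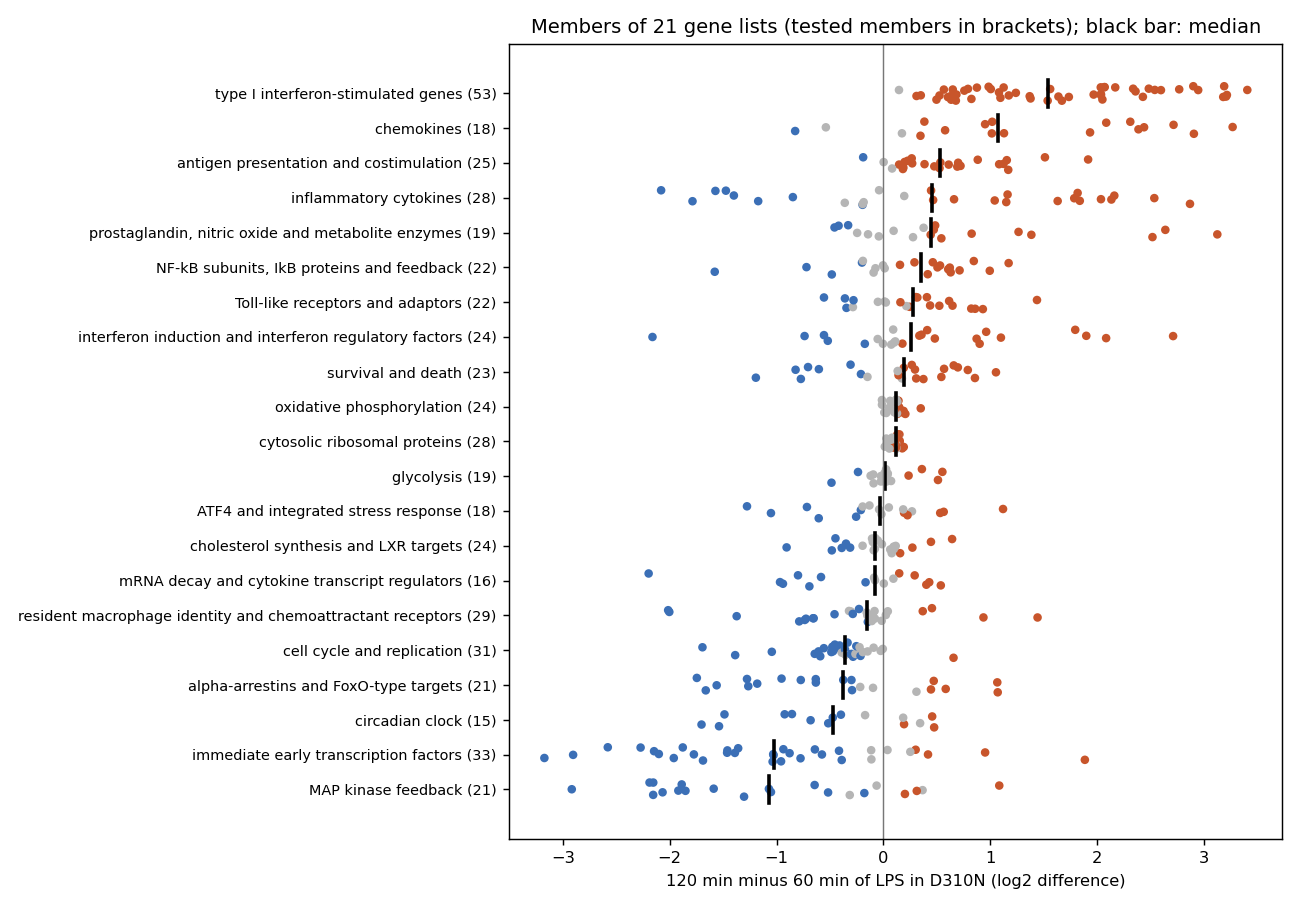
Log2 difference of the D310N step, 120 min minus 60 min, for each tested member of 21 gene lists, with 1 point per gene in orange (called, higher), blue (called, lower) or grey (not called) and a black bar at the list's median. The interferon list sits wholly above 0 with a median of 1.54, and the immediate early and MAP kinase feedback lists lie mostly below 0 with medians of -1.03 and -1.07.

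Genes were also grouped by how they behaved in the WT time course, whose libraries are not part of the D310N step. The later onset class, with a change under 0.5 at 60 min of LPS and a rise of at least 1 at 240 min in WT, held 1120 genes; in D310N 840 of them rose from 60 to 120 min (75%) and 36 fell, with a median of 0.47. The later decline class, its mirror image, held 1086 genes, of which 887 fell (81.7%) and 9 rose, with a median of -0.53. Genes outside all classes numbered 8849, with 23.7% higher and 23.3% lower. For 227 of the 425 genes that rose by more than 1 the class was later onset, and for 139 of the 284 that fell by more than 1 it was later decline.

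The 144 genes induced by at least 2 in WT at 60 min, the early strong class, did not share 1 direction: 56 rose, 60 fell and 28 were not called, with a median of -0.07. Nr4a1, Dusp5, Egr3, Egr2, Kdm6b and Irf4 were the 6 largest falls of that class under the rule for naming genes. Cxcl10, Il12b (from 11.22, 11.15 and 11.22 to 12.95, 13.00 and 13.01) and Ifnb1 were among its rises. The genomic spans of the class were short, with a median of 9.39 kb in its rises, 12.9 kb in its falls and 9.34 kb in its uncalled genes, against 23.5 kb over all tested genes. Their windows held the kappaB consensus in 20.9% of the rises (9 of 43), 10.9% of the falls (5 of 46) and 12.5% of the uncalled genes (3 of 24). The AP-1 site was in 18.6%, 10.9% and 16.7% of the same windows. Over all tested genes the kappaB share was 5.07% and the AP-1 share 5.01%. Of 258 early moderate genes, induced by 1 to 2, 140 rose and 65 fell; of 202 early decline genes, 101 rose and 34 fell, with medians of 0.36 and 0.37.

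**Figure D4:**
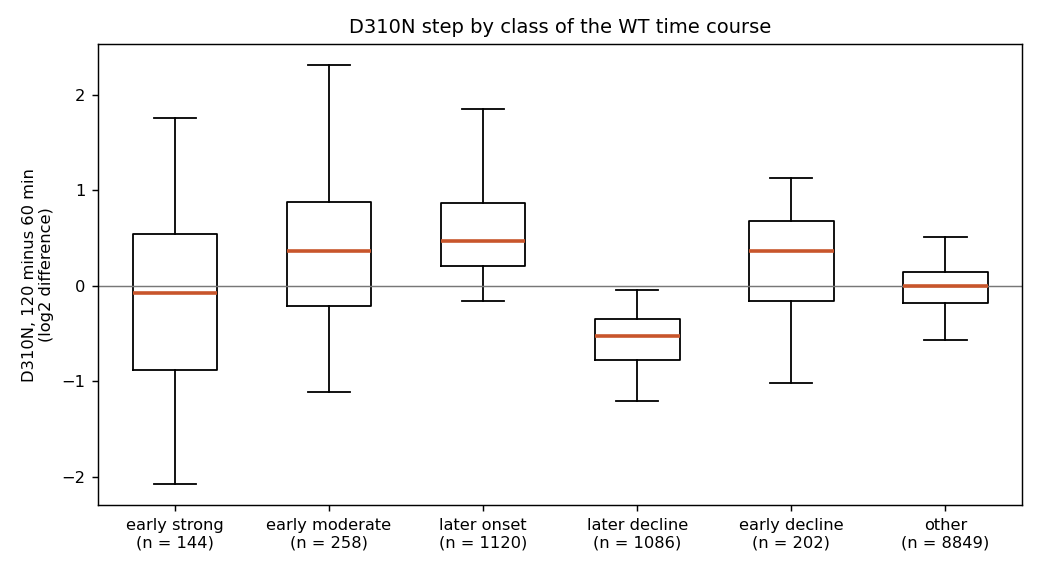
Log2 difference of the D310N step by class of the WT time course, with boxes from the 25th to the 75th percentile of genes, whiskers from the 5th to the 95th and an orange line at the median. Later onset genes lie mostly above 0 (median 0.47), later decline genes below it (-0.53), and early strong genes spread to both sides (-0.07).

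The same step in WT, measured in 6 other libraries, called 6313 genes (54.1%), 3035 higher (26%) and 3278 lower (28.1%). In both genotypes 5405 genes were called, 5402 of them in the same direction; these were 84.6% of the D310N calls and 85.6% of the WT calls. Every one of the 425 D310N rises of more than 1 was called higher in WT as well, and 282 of the 284 falls were called lower there. Across tested genes the 2 steps had a Pearson r of 0.951, given as a description, since genes are not independent replicates. Over the 7296 genes called in either genotype, the slope of the D310N step on the WT step was 0.922.

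The difference of the step between genotypes was tested for each gene by an interaction contrast, D310N minus WT, and 34 genes were called (0.292%). Of these 27 had a lower value in D310N (0.232% of all tested genes) and 7 a higher one (0.06%). Of the 11659 tested genes, 671 had an unadjusted p under 0.05, a threshold that a share of 0.05 would pass if no gene differed. With median centring the split was 45 lower and 5 higher. Among the 27, 22 rose in both genotypes and by less in D310N.

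Cxcl9 (chromosome 5, 92321347 to 92328079), the interferon-gamma-induced CXCR3 ligand, had the clearest smaller rise of a secreted factor. In D310N it was at 6.95, 6.89 and 6.91 and then at 9.78, 9.48 and 9.64, and in WT at 7.08, 7.05 and 7.01 and then at 10.69, 10.59 and 10.46. The genotypes lay close at 60 min and apart at 120 min, with steps of 2.72 ± 0.06 and 3.53 ± 0.06 and a difference of -0.81 ± 0.08 (limma, adjusted p = 5.21e-07). By 240 min the group means were 13.4 in D310N and 13.7 in WT.

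Rin2 (chromosome 2, 145675215 to 145887616), which encodes a Ras and Rab5 interactor, had the smallest p. It was at 12.80, 12.76 and 12.79 and then 13.12, 13.13 and 13.17 in D310N, and at 11.75, 11.81 and 11.83 and then 12.85, 12.84 and 12.73 in WT. Its D310N mean was already the higher one at 0 min, at 12.36 against 11.96 in WT. From 30 to 60 min it rose by 0.35 in D310N, while the WT mean went from 12.03 to 11.80. The smaller step from 60 to 120 min (0.36 against 1.01, limma difference -0.65 ± 0.06, adjusted p = 9.68e-08) brought the genotypes closer. Bach1, a heme-regulated repressor, moved in opposite directions: from 10.50, 10.56 and 10.55 to 9.91, 10.18 and 10.04 in D310N, and from 10.52, 10.57 and 10.57 to 10.83, 10.88 and 10.56 in WT. Its steps were -0.49 ± 0.07 and 0.20 ± 0.07, with a difference of -0.70 ± 0.10 (adjusted p = 0.000197), and the means met again at 240 min (10.9 in both).

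Cd274, the PD-L1 gene, was at 10.82, 10.64 and 10.82 and then 12.26, 12.26 and 12.30 in D310N, against 10.58, 10.70 and 10.67 and then 12.74, 12.76 and 12.58 in WT (difference -0.53 ± 0.08, adjusted p = 0.000664). Irf2, an interferon regulatory factor that can repress, fell more in D310N (-0.74 against -0.28), and Tagap, a GTPase-activating protein of immune cells, fell by 0.33 there and rose by 0.14 in WT. Other smaller rises were those of Gbp4 (1.23 against 2.04), Tnfsf10, the TRAIL ligand (2.16 against 2.81), and Nod1, a sensor of bacterial peptidoglycan (0.59 against 1.03). The Nod1 call was lost without WT 120 min replicate 1 (limma, adjusted p = 0.0572) and without WT 60 min replicate 2 (0.0504). Among the 7 with a higher value, Irg1 rose by 1.39 in D310N and 1.09 in WT, having started lower in D310N at 60 min (a mean of 13.2 against 13.7).

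The calls of the difference for Nos2 (-0.43), Cxcl11 (-0.46), Irf8 (-0.55) and Stat3 (-0.33) were each lost under at least 8 of the 23 alternative settings, leave-one-out settings among them. No member of the type I interferon, immediate early or MAP kinase feedback lists was called for the difference. The medians of the difference over these lists were -0.02, 0.11 and -0.04, beside 0.01 over all tested genes. The absence of calls depends on list membership: the interferon list holds other guanylate-binding protein genes but not Gbp4, which was called (-0.80). Calls of the difference fell on 3 of 24 genes of interferon induction and regulatory factors (Irf2, Irf8 and Stat3, list median -0.10), 2 of 18 chemokines (Cxcl9 and Cxcl11), 2 of 19 mediator enzymes (Nos2 and Irg1), Tnfsf10 among the cytokines and Cd274 among the antigen presentation genes, beside 0.292% of all tested genes. Ifit1 had a difference of 0.38 ± 0.11 (adjusted p = 0.237). The 34 genes lay on 17 chromosomes, with 6 on chromosome 5, which carries Tnip2, and 6 on chromosome 11 (17.6% each, against 6.44% and 8.45% of the tested genes). On chromosome 5, Cxcl9 (92321347 to 92328079) and Cxcl11 (92359544 to 92365485) lie close together, away from the Tnip2 position given above. Any part of the Tnip2 region in these counts was not tested. Olfr56 and Gm12185, both among the 34, overlap on chromosome 11, and reads in the shared stretch cannot be told apart.

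**Figure D5:**
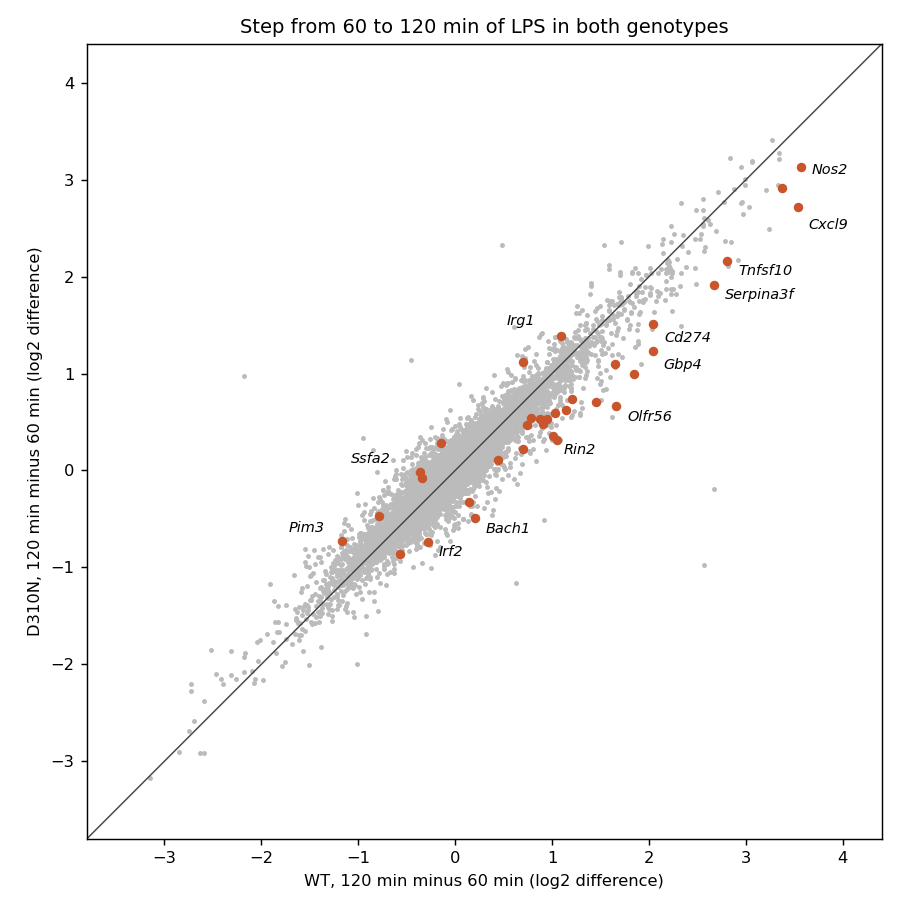
Log2 difference from 60 to 120 min of LPS in WT (horizontal) and D310N (vertical), 1 point per tested gene, with the 34 genes whose step differed between genotypes in orange and the line of equal steps. Most genes follow the line (r of 0.951), and orange points such as Cxcl9, Gbp4 and Rin2 lie below it while Irg1 lies above.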

How the data were processed

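RNA of mouse bone marrow-derived macrophages was sequenced as single-end 75 bp reads in 36 libraries, 12 groups of genotype and time with 3 each. Per the submitters' processing notes, the tools and build were STAR 2.5.2a, RSEM 1.2.31, DESeq2 1.10.1 and mm10. The authors deposited 1 table with 16439 genes, whose entries are normalised log2 values; raw counts were not used here. The transformation is not given in the sources used here; one that shrinks low values would make differences of weak genes too small. Depth is unknown, so no counting interval or detection limit is given. The header writes D309N where the titles write D310N, and the titles were followed.

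Left out were 23 gene names turned into dates. The 11659 genes that reached 10 on the linear scale in 3 libraries entered the test. The model was that of limma 3.58.1 (R 4.3.3) on the deposited log2 values: all 36 libraries were fitted with a mean for each group (24 degrees of freedom left) with an intensity trend, and two-sided p-values were adjusted per comparison (Benjamini-Hochberg). Genes were called at an adjusted p under 0.05. The comparisons were the step from 60 to 120 min in D310N, the same step in WT, the difference of the 2 and the other steps of the D310N course. The script was tested on simulated data. Positions come from GENCODE M21 (GRCm38), matched by symbol for 11592 genes (99.4%). Promoters came from RefSeq (GRCm38.p6), with the first listed window of a gene. Overlapping genes and near-identical copies are uncertain, because strand-aware counting is not stated.

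The genes, lists and classes were chosen with earlier results of these data known. Named genes were the 12 largest rises and 12 largest falls among called genes without overlap of libraries and whose higher group averaged 50 or more, on the linear scale; the 6 largest rises of the later onset and falls of the early strong class; for the difference, the 8 smallest p-values and the 4 largest called values in each direction; up to 4 members of each list plus those that describe a role; and Tnip2 with 5 genes of its pathway. Some genes that the rule names are not reported here. Other names are members whose values describe a list or call. The early strong and early moderate classes rose by at least 2 and by 1 to 2 from 0 to 60 min in WT, and early decline genes fell there by at least 1. Alternatives were other filters, pseudocounts of 1 and 8 on back-transformed values, other scalings and model settings, a replicate block and leaving out single libraries.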

Additional observations from a re-analysis of the deposited data

Results flagged for a closer look

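For 14 genes, the step from 60 to 120 min differed between D310N and WT by the interaction test, and they are given here because their difference had either 1 of the 8 smallest p-values or 1 of the 4 largest called sizes in a direction. Values are D310N minus WT in log2 units with adjusted p-values from limma. Lower in D310N were Rin2 (-0.65), Cxcl9 (-0.81) and Bach1 (-0.70), described above, with Adap2 (-0.48, adjusted p = 0.000586), Themis2 (-0.47, 0.000664), Cd274 (-0.53) and Serpina3f (-0.76, 0.000664). Adap2 encodes an Arf GTPase-activating protein, Themis2 a signalling adaptor of macrophages and Serpina3f a protease inhibitor. Serpina3f was at 4.75, 4.69 and 4.56 and then 6.73, 6.51 and 6.50 in D310N, and at 4.61, 4.66 and 4.86 and then 7.46, 7.42 and 7.28 in WT, so the genotypes overlapped at 60 min and not at 120 min.

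The largest sizes below 0 were Olfr56 (-1.0, adjusted p = 0.0298), Gm12185 (-0.85, 0.00692), Cxcl9 and Gbp4 (-0.80, 0.00208). Olfr56 and Gm12185 overlap in the annotation, and the Olfr56 values at 120 min in WT were spread, at 5.94, 5.69 and 5.12. Higher in D310N were Ssfa2 (0.35, adjusted p = 0.000261), Pim3 (0.44, 0.038), 6430706D22Rik (0.43, 0.0225) and Atp10a (0.43, 0.0142). Ssfa2 fell in WT (-0.37) and was not called in D310N (-0.02), though it was with quantile normalisation (-0.17). Pim3, a survival kinase gene, fell in both genotypes and by less in D310N (-0.73 against -1.16). Of these 14 genes, Olfr56, Pim3, 6430706D22Rik and Atp10a were lost under at least 1 alternative.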

How the results depend on the processing

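The count of genes called in the D310N step stayed within 1.5 times of 6388 under each alternative run, from 5615 (without D310N 60 min replicate 2) to 6849 (without WT 360 min replicate 1, whose spread from its group mean, an SD of 0.246, exceeded that of the other 35 libraries). Quantile normalisation gave 2886 higher and 3409 lower. The count for the difference of the step depended more on the settings. It went from 34 to 123 with library weights (38 higher, 85 lower). The split was 5 higher and 45 lower with median centring, and 12 higher and 24 lower with only the groups compared. Leave-one-out fits gave 19 to 96, with 19 without WT 120 min replicate 1 or WT 60 min replicate 2. The count was 22 without WT 60 min replicate 1 and 96 without WT 360 min replicate 1. WT at 360 min is not in this contrast, and enters it only through the estimate of the spread that all groups share. The cause of the other changes was not tested. Of the 34 genes, 16 were called under all 23 alternatives and 18 were lost under at least 1. The medians of the ribosomal and glycolysis lists turned below 0 with quantile normalisation, as given above, and that of all genes (-0.00133) became 0.00051 with median centring. Among single genes given, signs turned for 3 small values: with quantile normalisation the D310N step was -0.011 for Stat3 and the difference was 0.024 for Tnfaip3, and the Ssfa2 step ran from -0.041 to 0.012 over the leave-one-out fits, the latter without D310N 120 min replicate 1; with quantile normalisation Ssfa2 was called lower in D310N (-0.166, limma, adjusted p = 5.78e-05). Tnip3 passed as a fall under 4 alternatives, with quantile normalisation at -0.35. Ribosomal protein genes higher in the D310N step numbered 6 with only the groups compared, 2 without D310N 120 min replicate 1 and 4 without D310N 60 min replicate 2, and oxidative phosphorylation genes numbered 5 in the first and last of these.

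The replicate numbers recur in every group, but the labels do not say that they pair libraries. Deviations of same-numbered D310N libraries at 60 and 120 min correlated by 0.352, 0.233 and 0.0955 across genes, and each library correlated best with its own number; in WT the values were -0.0918, -0.0122 and -0.0982. With a replicate block the counts were 6640 for the D310N step, 6563 for the WT step and 43 for the difference.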

Other observations

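The largest values of the difference of the step belonged to genes that were not called. In 10 genes it exceeded 1 in size and 0 of these were called; they were singled out after their values were seen. Several switched between a low and a high level within a group. Eif3j1, which encodes a translation initiation factor subunit, was at 3.59, 3.60 and 8.63 in the D310N libraries at 60 min and at 3.59, 7.82 and 3.86 at 120 min. In WT it was at 8.55, 3.49 and 3.54 and then at 7.23, 8.20 and 8.18. H2-Q6, of the multigene family of class I-like histocompatibility genes, was at 5.37, 5.04 and 1.57 and then 4.76, 2.27 and 2.02 in D310N. Gm17757 was at 1.53, 1.55 and 7.08 and then 3.41, 7.84 and 1.83 there. In each of these 3 genes the libraries of the 2 times overlapped in D310N. These 3 genes lie far from the line of equal steps in the plot of both genotypes, but limma did not call their difference, and the cause of the switching was not tested. Steap4, which encodes a metalloreductase, did not switch within a group: it was at 1.71, 2.11 and 2.21 and then 2.49, 2.54 and 2.64 in D310N, and at 1.91, 1.95 and 1.66 and then 3.47, 3.42 and 3.47 in WT (difference -1.07 ± 0.27, limma, adjusted p = 0.102).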
